A study of Mus musculus with 4 samples.

Results

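Sites of N6-methyladenosine (m6A) were examined in 9 mouse genes that carry the Wnt signal from the cell surface to the nucleus. These were Lgr4, Rnf43, Lrp5 and Fzd6 at the receptor, Dvl1, Dvl3 and Dact1 in the cytoplasm, and Tcf7l1 and Tcf7l2 in the nucleus. The members were selected on the gene names of rows in the deposited site lists, and the genes themselves were picked with the sites listed for them in KO and WT known. The 9 genes held 10 of the 3937 sites in the KO list and 14 of the 10514 sites in the WT list. The KO pancreata (Mettl3pKO) lacked Mettl3, which encodes the methyltransferase that writes m6A, in Pdx1-positive progenitors, and the WT pancreata did not. All tissue was dissected at embryonic day 15.5, and cells outside the Pdx1 lineage keep the gene in this model. For each genotype 1 MeRIP library of fragments bound by an m6A antibody and 1 input library without pull-down were sequenced, so there is no replicate spread and no test between genotypes. The number of animals pooled, the floxed allele and the Cre line are not stated in the labels.

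Wnt proteins bind a Frizzled receptor together with the co-receptor Lrp5 or Lrp6, and Dishevelled proteins relay the signal by blocking the complex that destroys beta-catenin. Beta-catenin then enters the nucleus and binds Tcf and Lef proteins on Wnt target genes. In the developing pancreas the pathway is known chiefly for its part in the growth of the exocrine tissue. Mettl3 methylates adenosines in messenger RNA within a short preferred sequence context, often in long internal exons and close to the stop codon.

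Both lists hold intervals called separately in each genotype, with the authors' fold enrichment of MeRIP over input, score and false discovery rate for each interval. These are the authors' values of single peaks and are given beside each other, with no ratio taken between the genotypes. The numbers in the deposited peak names ran up to 99502 in the KO list and 94812 in the WT list, so the listed sites amounted to 3.96% of the highest KO number and 11.1% of the highest WT number. The lowest false discovery rate of any site was 45.92% in the KO list and 9.75% in the WT list. Of 12 markers of pancreas epithelium 2 had a site in the KO list and 8 in the WT list, and of 7 mesenchyme markers 4 had a site in the KO list and 5 in the WT list. Over all genes, 2778 had a site in the KO list and 5085 in the WT list, and 37.9% of the genes listed in WT were listed in KO too. Nothing is read from the counts of so few markers. Pdx1, Ptf1a, Cpa1 and Neurog3 had a site in neither list. Fewer cells of a type, less RNA per cell and less methylation cannot be told apart in such lists, and the part of cell makeup in the results was not tested.

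Intervals of Dvl1, Tcf7l1 and Dact1 reached the annotated gene start, which is the place where sequence could be set beside the sites. RefSeq windows (GRCm38.p6) from 250 bases before to 50 bases after a gene start were found for 7 of the 9 genes, Lrp5 and Fzd6 being without one. They were searched for 12 words of 5 letters that make up a common form of the m6A context, with A or G at the first and the second place, A at the third, C at the fourth and A, C or T at the last. The part of the Dvl1 interval inside the window held 1 such word on the transcript strand, GGACC, which begins 50 bases before the annotated start. That of Tcf7l1 also held 1, AAACT, which begins 31 bases before the start. The first 50 bases of Dact1 held 0. A stretch of 30 bases is shown for each gene 5′ to 3′ on the transcript strand, with the match in capitals. For Dact1, which has no match, it is the first stretch of its KO interval.
Dvl1 (chr4:155847340-155847369, plus strand): ccccgccccgccGGACCcgctctgcgcgtg
Tcf7l1 (chr6:72789059-72789088, minus strand): cacgccctgtcaAAACTttgtcgccgcagc
Dact1 (chr12:71309884-71309913, plus strand): agacgggagcagcgcgggatgcgagtgcgg

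These matches are descriptions of the letters. The words marked in Dvl1 and Tcf7l1 lie wholly before the annotated start, outside the annotated gene. Past the first 50 bases after each start, the intervals were not searched. Of 32841 annotated start windows, 77.1% held a word in the same 135 bases that Dvl1 shared with its site, 94.3% in the 259 bases that Tcf7l1 shared and 44.6% in the first 50 bases that Dact1 shared. On the other strand Dvl1 had 1 match, Tcf7l1 had 3 and Dact1 had 0, against 78.2%, 94.8% and 44.9% of all windows with at least 1. The stretches were rich in G and C, which made up 82.2% of the Dvl1 bases, 74.1% of the Tcf7l1 bases and 76.0% of the Dact1 bases.

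The 9 genes fell into 3 patterns. Rnf43, Fzd6 and Dvl1 had a site in the KO list only. Lrp5, Dvl3, Dact1 and Tcf7l1 were found in both lists. Lgr4 and Tcf7l2 were found in the WT list only. Among all 5934 genes with a site, 14.3% were listed in KO only, 32.5% in both and 53.2% in WT only. The members were picked with these patterns known, so nothing is read from their counts. Intervals that recurred numbered 5, in Lrp5 (2), Dvl3, Dact1 and Tcf7l1.

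The recurring intervals were 5 of the 10 KO sites, 50% (exact 95% interval 18.7 to 81.3), against 32.6% of all KO sites that overlapped a WT site by at least 1 bp. They were 5 of the 14 WT sites, 35.7% (12.8 to 64.9), against 12.2% of all WT sites. The members were picked with these sites known and several sites share a gene, so the intervals are no test against the lists. The counts of recurring sites depended on the sites admitted. With the WT list shortened by fold enrichment to the length of the KO list, 1 of the 10 KO sites and 1 of 8 WT sites recurred. Where the false discovery rate was limited to 50%, 2 of 6 KO sites and 2 of 14 WT sites did. The member KO sites above that rate had the highest scores of the 10, so this limit did not keep the best-scored ones. Both limits act on every site, and shares over all sites under them are not given. The lower counts are therefore not read as particular to the members. In 3 pairs, in Lrp5, Dvl3 and Tcf7l1, both ends were the same to the base. In the other 2 pairs, in Lrp5 and Dact1, 1 end was the same and the KO interval ran further at the other end, by 140 bp in Lrp5 and by 150 bp in Dact1. Over all 1289 overlapping pairs, 79.1% were identical and 17.8% shared 1 end. Whether an interval is a peak itself or a fixed block that holds one is not stated, so where a peak lay inside a recurring interval is not resolved.

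**Figure D1:**
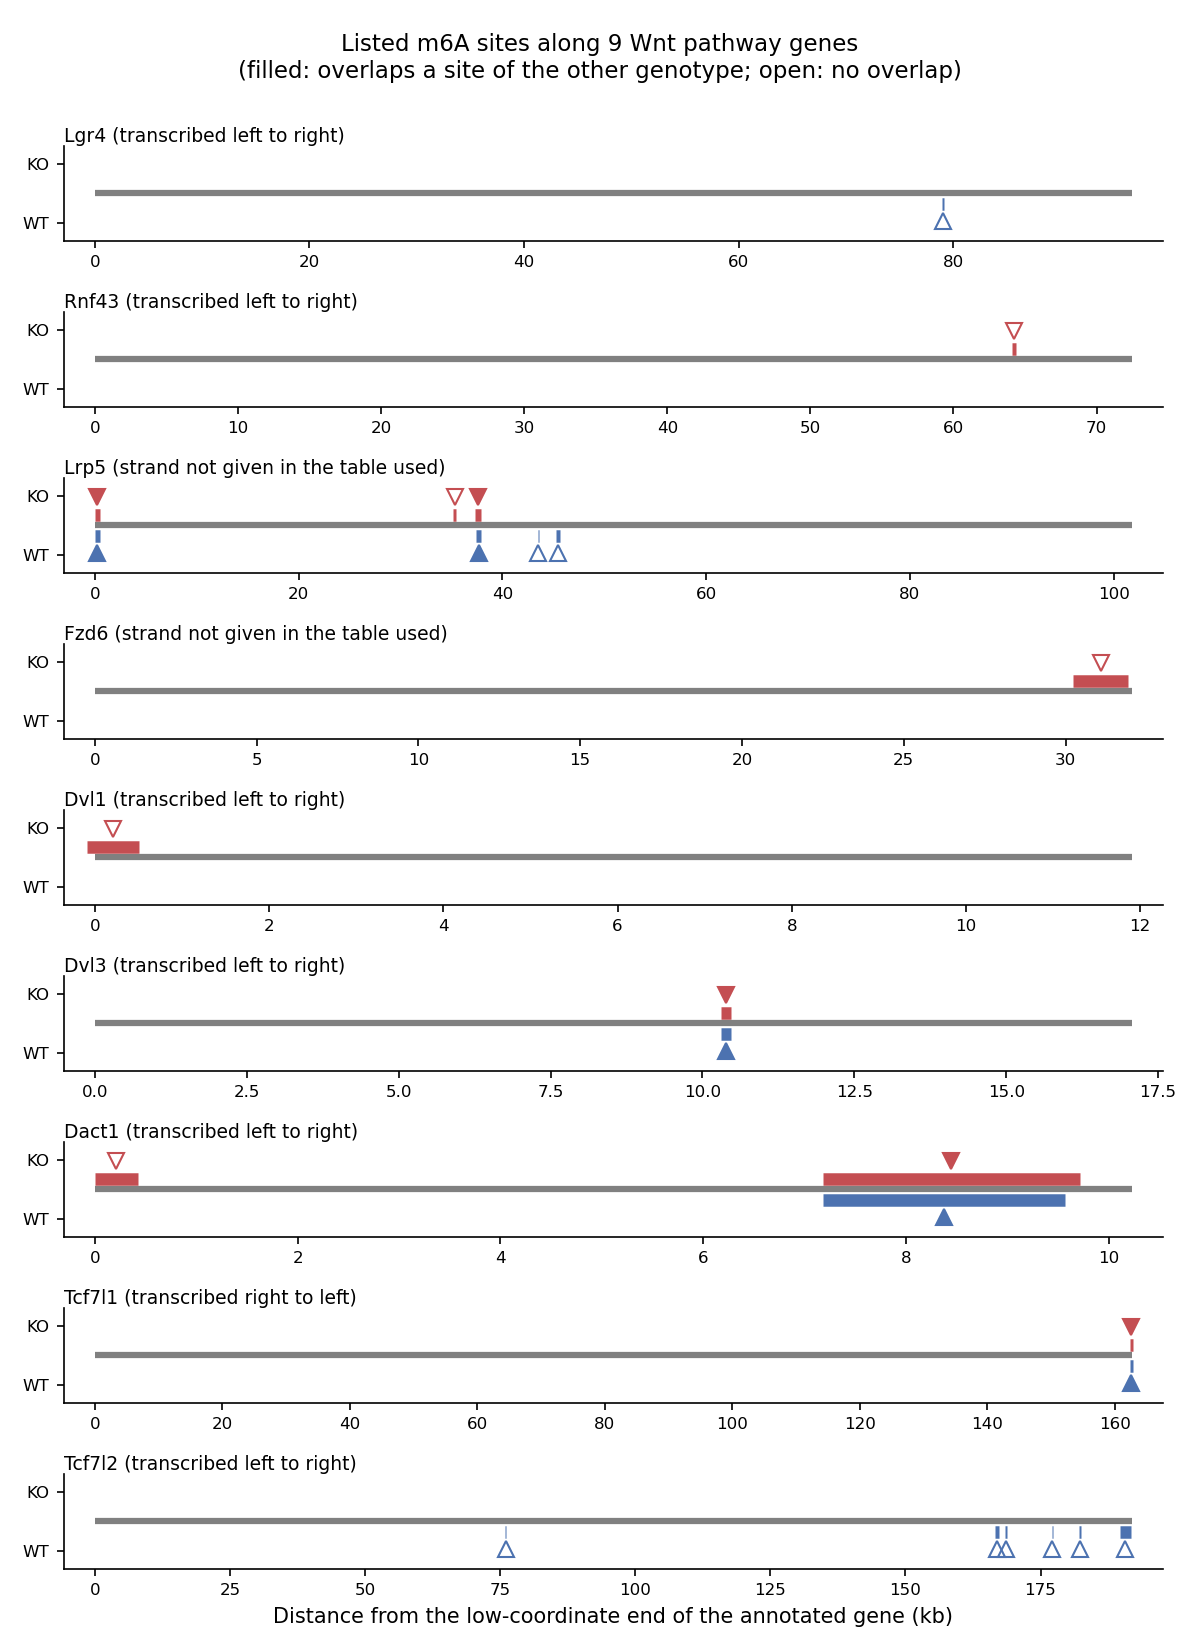
Listed m6A sites along each of the 9 genes, one panel per gene, with distance from the low-coordinate end of the annotated gene in kb on the horizontal axis. Triangles above the grey gene line are KO sites and those below are WT sites, bars show interval widths, and filled triangles mark the 5 intervals that recur in Lrp5, Dvl3, Dact1 and Tcf7l1, while the 6 Tcf7l2 sites are all open WT triangles.

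Lgr4, a receptor for R-spondins that keeps Frizzled receptors at the surface, had no KO site and 1 WT site. The WT site lay on chromosome 2 at 109996554 to 109996769, 78.9 kb after the start of the 96.6 kb gene, and was assigned to transcript NM_172671. Its fold enrichment of 11.25 was the highest of the 14 WT sites, and 89.4% of the WT list lay below it. Its score was 96.23 and its false discovery rate 10.85%. Between the nearest listed KO sites on either side of Lgr4, 2600 kb apart, the KO peak numbering skipped 76 numbers, so peaks that are not in the list were numbered there, at positions unknown. Neither Lgr5 nor Lgr6, the other R-spondin receptors of this family, had a site in either list. Among genes with exactly 1 WT site, 26.2% had a KO site as well.

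Rnf43, a ubiquitin ligase that removes Frizzled receptors from the surface and is held back by R-spondin with Lgr receptors, showed the opposite listing to Lgr4. It had 1 KO site on chromosome 11 at 87727172 to 87727467, assigned to transcript uc007kui.1, and no WT site. The site began 64.1 kb after the start of the 72.5 kb gene. Its fold enrichment of 9.53 was above 93.4% of the KO list, whereas its score of 59.62 was above 30.2% of that list, with a false discovery rate of 48.20%. Znrf3, which encodes the closely related ligase, had no KO site and 1 WT site with a fold enrichment of 10.10. Of genes with exactly 1 KO site, 62.4% also had a WT site.

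Lrp5, the co-receptor that joins Frizzled in the canonical pathway, was listed most often among the 7 members with a KO site. It had 3 KO sites and 4 WT sites on chromosome 19, which together marked 5 separate places. The interval at 3584825 to 3585291 was identical in both lists and began exactly at the low-coordinate end of the gene. Its fold enrichment was 8.07 in KO and 10.48 in WT, each the highest of Lrp5 in its list, and its score was 99.21 in KO and 127.71 in WT. Its false discovery rate was 51.21% in KO and 13.81% in WT.

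The other Lrp5 sites lay within 10.5 kb of each other, 34.7 kb further into the gene. An interval assigned to transcript uc008fwr.2 recurred, at 3622110 to 3622726 with a fold enrichment of 5.61 in KO and at 3622250 to 3622726 with 7.07 in WT. A KO site at 3620015 to 3620304 (fold enrichment 6.74) had no WT counterpart and ended 1805 bp before the recurring KO interval. WT sites at 3628273 to 3628444 (8.89) and at 3630074 to 3630470 (6.37) had no KO counterpart. The WT site with the lowest fold enrichment of the 4, at 3630074, had their highest score, 165.00, so fold enrichment and score ordered the Lrp5 sites differently. The sites without a partner therefore lay on opposite sides of the recurring interval, the KO site at lower coordinates and the WT sites at higher ones. The strand of Lrp5 is not in the tables used here. Of genes with exactly 4 WT sites 61.1% were listed in KO too. The other co-receptor gene, Lrp6, had no KO site and 6 WT sites with fold enrichments of 6.52 to 10.58.

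Fzd6, a Frizzled receptor best known from planar cell polarity, had 1 KO site and no WT site. The site lay on chromosome 15 at 39036386 to 39038085 and ended 107 bp before the high-coordinate end of the 32.0 kb gene. With 1700 bp it was among the long intervals, those of 1000 bp or more, which made up 12.8% of the KO list and 16.8% of the WT list. Its fold enrichment of 5.10 was above 23.4% of the KO list, its score was 69.91 and its false discovery rate was 47.01%, the lowest of the 10 KO sites. Fzd6 was the Frizzled gene with a KO site, while Fzd5 (10.37), Fzd3 (7.96), Fzd4 (7.18), Fzd8 (6.14) and Fzd1 (5.29) each had 1 WT site, with the fold enrichment given, and no KO site.

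Dishevelled proteins are the adaptors that link Frizzled to the beta-catenin pathway, and the 3 family genes differed in their listing. Dvl1 had 1 KO site and no WT site, Dvl3 had 1 site in each list, and Dvl2 had none in either. The Dvl1 site on chromosome 4 at 155847317 to 155847904 began 85 bp before the annotated start of the gene and covered that start. Its fold enrichment was 6.58, its score 57.51 and its false discovery rate 49.07%. The score was above 23.9% of the KO list, close to the lower end of the KO scores, which began at 50.02.

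The Dvl3 interval on chromosome 16 at 20527252 to 20527419, of 168 bp, was identical in both lists. It lay 10.3 kb after the start of the 17.1 kb gene and was assigned to transcript NM_007889. Fold enrichment was 5.63 in KO and 6.92 in WT, the score was 121.98 in KO and 70.82 in WT, and the false discovery rate was 58.68% in KO and 9.85% in WT. Within its own list the site lay in the lower part by fold enrichment in both genotypes, above 35.2% of KO sites and above 32.4% of WT sites. By score it was above 89.1% of the KO sites and 35.2% of the WT sites.

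Dact1, whose protein binds Dishevelled and modulates its activity, held the strongest KO site of the members. This site on chromosome 12 at 71309884 to 71310307 began at the first annotated base of the gene and was assigned to transcript NM_021532. Its fold enrichment of 21.78 was the third highest of the 3937 KO sites, and its score of 384.04 ranked 27 from the top. Its false discovery rate was 100%, a value found at 75 KO sites, among them all 27 sites with a score at least as high. No WT site lay there. The fold enrichment was above that of every other site of the 9 genes, of which the next in the KO list was 9.53 in Rnf43.

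The second Dact1 interval lay 6.75 kb further on, near the end of the 10.2 kb gene, and was listed in both genotypes. It ran from 71317060 to 71319599 in KO and to 71319449 in WT, from the same first base, and was assigned to transcript NM_001190466. Its fold enrichment was 4.46 in KO, the lowest of the 10 KO sites, and 6.47 in WT. Its score was 56.13 in KO and 106.97 in WT, with a false discovery rate of 49.08% in KO and 11.58% in WT. Dact1 thus had 2 KO sites and 1 WT site. More KO than WT sites were found in 9.54% of the 1929 genes listed in both, and of the 724 genes in both with 1 WT site 15.1% had 2 KO sites. Of its relatives, Dact2 had no KO site and 1 WT site with a fold enrichment of 12.20, and Dact3 had no site in either list.

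**Figure D2:**
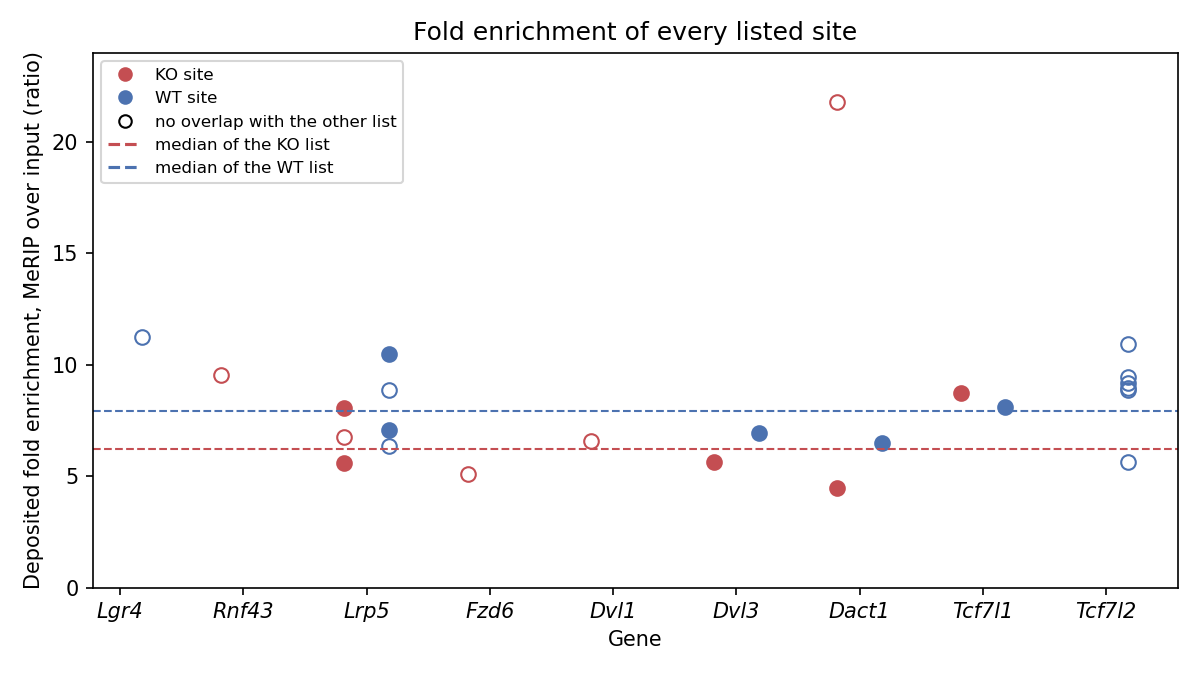
Deposited fold enrichment of MeRIP over input, a ratio, for every listed site of the 9 genes, KO sites in red on the left of each gene and WT sites in blue on the right. Each point is 1 site, filled where it overlaps a site of the other list, and dashed lines mark the medians of all KO sites (6.20) and all WT sites (7.91). The Dact1 start site at 21.78 stands above all other points.

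The Tcf genes encode the DNA-binding partners of beta-catenin, and the 2 members had contrasting lists. Tcf7l1, which mostly represses Wnt targets, had 1 interval that was identical in both genotypes, on chromosome 6 at 72788710 to 72789254. Tcf7l1 lies on the minus strand, and the interval covered its annotated start and reached 209 bp beyond it. The lists assign it to the transcript ENSMUST00000069536. Its fold enrichment was 8.75 in KO and 8.10 in WT, its score was 116.71 in KO and 59.58 in WT, and its false discovery rate was 57.23% in KO and 9.92% in WT. The site was above 88.9% of the KO list and 53.3% of the WT list by fold enrichment.

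Tcf7l2, which activates Wnt targets with beta-catenin, had no KO site and 6 WT sites on chromosome 19, the most of any member. Their fold enrichments ran from 5.62 to 10.95, and 5 of the 6 were above the WT list's median of 7.91. The first site at 55817764 to 55817865 (9.47) lay 76.0 kb after the start of the 192 kb gene and 77.5 kb before its second annotated start. The other 5 lay after that second start and within 25.1 kb of each other. These were the sites beginning at 55908423 (8.94), 55910167 (10.95), 55918885 (8.87), 55923896 (9.17) and 55931434 (5.62). The last was 2061 bp long and ended 165 bp before the end of the gene. The site at 55918885 had the highest score of all 14 WT member sites, 188.85, and the last had the lowest, 51.51. The transcripts assigned were NM_009333 for the first, the fourth and the last site, uc008hya.2 for the second and the third, and uc008hye.2 for the fifth.

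Most genes with as many WT sites as Tcf7l2 were listed in KO too, namely 73.6% of the 125 genes with exactly 6 (exact 95% interval 65.0 to 81.1). A KO site did lie within the span of Tcf7l2 under another gene name, Ppnr (transcript uc008hym.1), at 55847600 to 55848733 with a fold enrichment of 7.50. It overlapped none of the WT sites and began 106 kb after the Tcf7l2 start, and strand is not part of the lists, so which transcript it belongs to is not resolved. No other site of a different name touched a member gene in either list. The numbering of KO peaks skipped 133 numbers between the listed KO sites on either side of Tcf7l2, other than the Ppnr site, over 1600 kb. In WT, between the first and the last Tcf7l2 site, 28 numbers were skipped. Of the other genes of this family, Tcf7 and Lef1 had no site in either list, and neither had Ctnnb1, the beta-catenin gene.

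In position and size the member sites were mixed. Intervals of 1000 bp or more numbered 2 in KO, in Fzd6 and Dact1, and 2 in WT, in Dact1 and Tcf7l2, and these 4 ended 107 to 658 bp before the high-coordinate end of the gene, which is the transcript end of Dact1 and Tcf7l2. Start windows were reached by 3 of the 10 KO sites, against 10.4% of all KO sites, and by 1 of the 14 WT sites, against 6.56% of all WT sites. Lrp5, with 3 KO and 4 WT sites, and Fzd6, with 1 KO site, had no start window, so their sites could not be counted as reaching one. With so few sites these shares are descriptions. The median width was 506 bp for the KO sites and 414 bp for the WT sites, against 201 bp in the KO list and 203 bp in the WT list.

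By strength the member sites were spread through their lists. The median fold enrichment was 6.66 over the 10 KO sites (range 4.46 to 21.78), against 6.20 for the KO list, and 8.88 over the 14 WT sites (5.62 to 11.25), against 7.91 for the WT list. Above their list's median were 6 of the 10 KO sites and 9 of the 14 WT sites. A false discovery rate of at most 50% was given for 6 of the 10 KO sites, against 70.1% of the KO list, and for 14 of the 14 WT sites, against 97.1% of the WT list. The 4 KO sites above 50% were the Dact1 start site and the 3 intervals that recurred identically, in Lrp5, Dvl3 and Tcf7l1. These 4 also had the highest scores of the 10 KO sites, from 99.21 to 384.04.

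**Figure D3:**
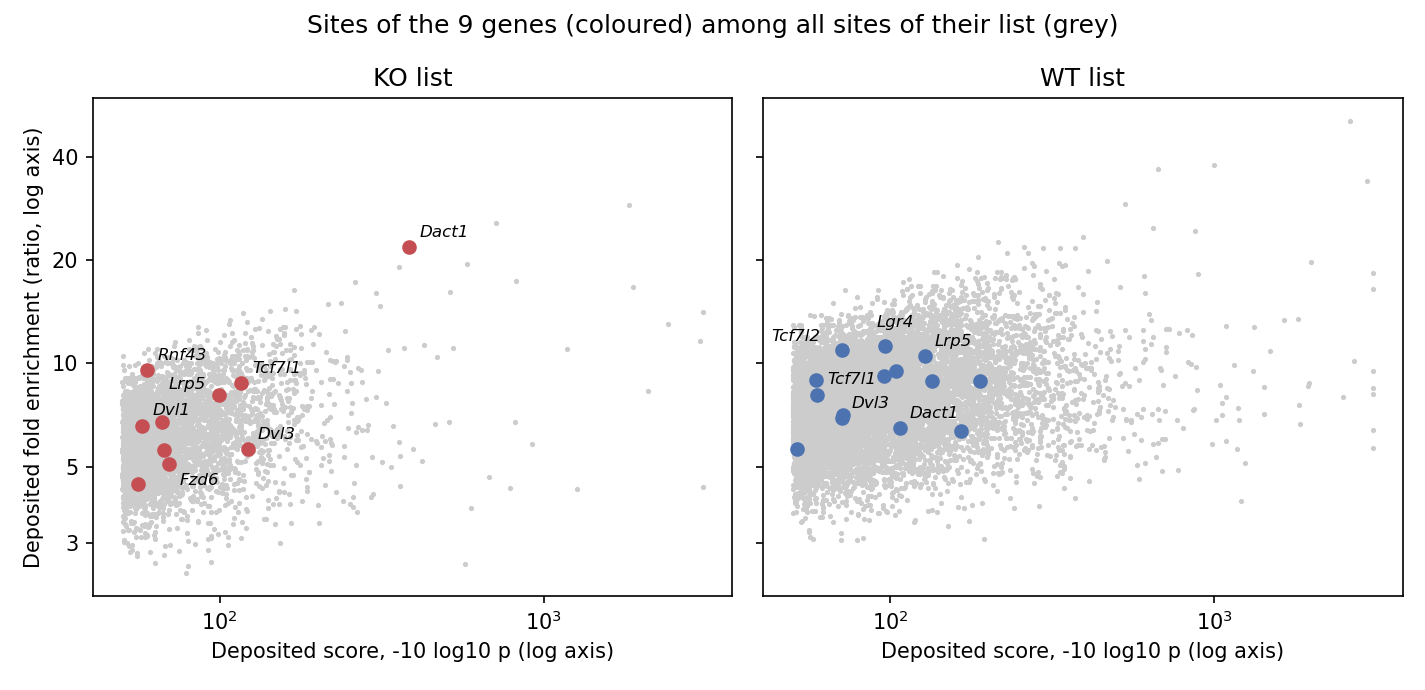
Deposited fold enrichment (ratio, log axis) against deposited score (10 times the negative log10 of p, log axis) for all sites of the KO list (left) and the WT list (right) in grey, with the sites of the 9 genes coloured and the strongest of each gene named. All member sites but the Dact1 start site in KO, at a score of 384.04 and a fold enrichment of 21.78, lie in the body of their list.

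The deposited annotation placed 6 of the 9 genes in the KEGG Wnt signalling pathway, Lgr4, Rnf43 and Dact1 being the 3 without this label. Of the 9, 5 also carried the Hippo pathway label, the 2 Dishevelled genes carried the Notch pathway label and the 2 Tcf genes that of the adherens junction.

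The rest of the pathway was described with a list of 97 Wnt genes that includes the members. The members Rnf43, Fzd6 and Dvl1 were the 3 genes listed in KO only. Both genotypes listed 13 genes, WT alone listed 26, and 55 genes had no site in either. Where the false discovery rate was limited to 50%, both genotypes listed 7 genes of the Wnt list, and the share over all genes at this limit is not given. Without the members, 33 genes were listed in WT and 9 of these, 27.3%, were listed in KO too, against 37.9% of all genes listed in WT. In 4 of these 9 a KO site overlapped a WT site, and the share of such genes over all genes listed in both is not given. Over the whole list, 13 of the 39 genes listed in WT were listed in KO too, 33.3%. In the other direction, 13 of the 16 genes listed in KO were listed in WT, 81.2%, against 69.4% of all genes listed in KO. The other 3 are members picked with their listing known. Without the members, all 9 genes listed in KO were listed in WT.

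Among other receptors, Ryk, a Wnt receptor related to receptor tyrosine kinases, had 1 KO site (fold enrichment 7.81) and 2 WT sites (best 13.87) without overlap. Among Dishevelled partners and polarity genes, Vangl1 (1 KO and 3 WT sites), Prickle1 (2 and 2) and Daam1 (1 and 4) were also listed in both genotypes without an overlapping pair, while Celsr2 had 1 WT site (5.33). The Dishevelled group had 5 of its 8 listed genes in both lists, against 32.5% of all listed genes, but Dvl3 and Dact1 among the 5 are members picked with their listing known. Wls, needed for Wnt secretion, had 1 KO site (9.03) and 2 WT sites (best 6.64) with an overlap. The false discovery rate of the Wls KO site was 95.04%. The ligand gene Wnt2b had 1 WT site (6.70). The secreted or surface inhibitor genes Sfrp2 (9.80) and Kremen1 (8.76) each had 1 WT site and no KO site.

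The destruction complex marks beta-catenin for breakdown, and its group in the list also holds the Axin regulators Tnks and Tnks2. Of the 9 genes of the group with a site, 7 were listed in WT only, against 53.2% of all listed genes. Another 3 had no site. Among the 7, Apc, a component of the complex, had 5 WT sites (best 9.89), the kinase gene Gsk3b had 2 (best 8.57) and Csnk1d had 1 (8.48). Btrc, the ubiquitin ligase subunit that recognises beta-catenin, had 1 KO site (6.82) that overlapped a WT site and 3 WT sites (best 13.00). Tnks, which destabilises Axin, had 1 KO site (6.07) and 3 WT sites (best 10.65) without overlap. Of the nuclear genes, the acetyltransferase coactivators were listed in both genotypes, Crebbp with 2 KO sites (best 5.65) and 9 WT sites (best 9.56), and Ep300 with 5 KO sites (best 7.89) and 3 WT sites (best 8.31). Ep300 shared 2 WT sites with KO and Crebbp shared 1. The corepressor gene Tle3 (8.51) and the beta-catenin cofactor genes Bcl9l (6.42) and Bcl9 (2 sites, best 6.0) had WT sites only. None of the 4 genes in the list's target group, Myc, Ccnd1, Nkd1 and Nkd2, had a site in either genotype. The group covers only these 4, and Axin2 (1 WT site, 8.17), Rnf43 and Znrf3 were counted in other groups.

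**Figure D4:**
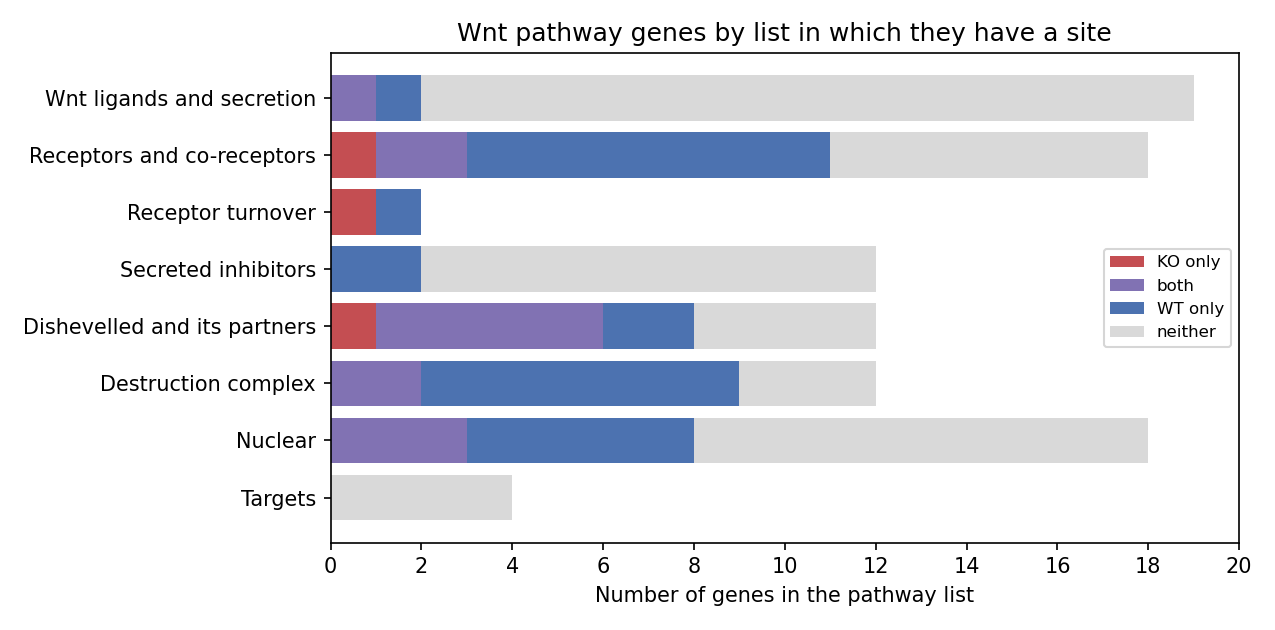
Number of genes of the 97-gene Wnt list, by role, with a site in the KO list only (red), in both (purple), in the WT list only (blue) or in neither (grey). The 3 genes listed in KO only are Rnf43, Fzd6 and Dvl1, and the destruction complex group has 7 genes in WT only, 2 in both and 3 in neither.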

How the data were processed

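The material was MeRIP-seq of KO and WT pancreas. RNA was fragmented to about 200 nt and pulled down with an m6A antibody, per the labels' protocols, and an input library was made for each genotype. The submitters' processing notes name cutadapt 1.9.3, HISAT2 2.0.4 and the mm10 build. Peak names begin with MACS, a peak caller, per the deposited files. Its version, duplicate handling and the filter from peaks to listed mRNA sites are not stated there. The deposited fold enrichment is the caller's ratio of MeRIP over input at a site. The deposited score is 10 times the negative log10 of the caller's p-value, per the file headers, and starts at 50, a p of 1e-05. The false discovery rates were taken to be in percent, as the deposited values go up to 100. It was assumed that peaks were called against the input of the same genotype. The lists hold no read counts, so sequencing depth is unknown.

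Starts were taken as counted from 0 and are printed counted from 1 on mm10. Sites were assigned to genes by the gene name in the lists, and 2 sites were called overlapping from 1 bp. Gene ends came from a RefSeq table of GRCm38.p6, the same assembly as mm10, and gene starts with their strand and sequence from a table of 300-base windows. Shares have exact (Clopper-Pearson) 95% intervals, which cover counting error only. No test between genotypes was run, as none had a replicate library. Python 3.11.15, pandas 2.3.3 and scipy 1.17.1 were used. The overlap code was tested on simulated intervals against a plain search. The members, the pathway list and the alternatives were chosen with earlier results of these data known. All members are named with every site. Of the rest of the pathway list, the genes listed in both genotypes are named, and up to 3 genes per role listed in 1 genotype, by fold enrichment. Ppnr, Lgr5, Lgr6, Dvl2, Dact3, Tcf7, Lef1, Ctnnb1 and other genes named outside this rule were taken after seeing their values.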

Additional observations from a re-analysis of the deposited data

How the results depend on the processing

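No paired analysis was possible because each genotype has 1 library of each kind. Requiring the overlap to cover at least 50% of each interval left all 5 recurring pairs. With identical ends required 3 remained. At a fold enrichment of 5 or more the Dact1 pair was lost, since its KO value is 4.46, which left 4 pairs, and Dact1 was still listed in both. With a false discovery rate of at most 50%, 6 KO and 14 WT sites remained, 2 recurring pairs were left, 2 member genes (Lrp5 and Dact1) were listed in both, and 7 genes of the Wnt list against 13. This limit removes KO sites above all, as the KO rates begin at 45.92%. The member KO sites it removed had the highest scores of the 10, namely 99.21, 116.71, 121.98 and 384.04. It therefore did not keep the best-scored KO sites, and the lower counts are not those of a stricter filter by score. With the WT list shortened to 3937 sites by fold enrichment, 8 member sites stayed in WT, 1 of these and 1 of the 10 KO sites had a partner, and 1 gene (Lrp5) was listed in both. Tcf7l2 had 5 WT sites there. Shares over all sites under these limits are not given. Assigning sites that lie within the annotated gene span gave 4 recurring pairs and 4 genes in both, with Tcf7l2 gained through the Ppnr site, Tcf7l1 lost from both lists and Dvl1 lost from the KO list, since its site begins 85 bp before the gene. With any overlap of the span, an alternative chosen after seeing the data, there were 5 and 5. Depth is unknown, so an unlisted site cannot be read as an unmethylated one.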
